A study of Mus musculus with 5 samples.

Results

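The sites described here are REX1 peaks at which a peak of catalytically inactive RNF12 was called and no peak of wild-type RNF12. They were chosen by peak calls alone: a REX1 peak on chromosomes 1-19 or X was taken where it overlapped a mutant RNF12 peak by at least 1 bp and overlapped no wild-type RNF12 peak. There were 9760 such sites among 95744 REX1 peaks, or 10.2% (95% Wilson interval 10.0% to 10.4%). Of the other REX1 peaks, 29063 overlapped both kinds of RNF12 peak, 8682 the wild-type only and 48239 neither. The split itself is the rule and is no result. Positions, sequences and copy numbers were not used by the rule and are what is compared below.

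The peaks come from V5 chromatin immunoprecipitation and sequencing (ChIP-seq) in female 129/Sv-Cast/Ei mouse embryonic stem cells (mESCs). By the labels, the REX1 list is from WT cells with FLAG-V5-REX1, the wild-type RNF12 list from Rlim+/- cells with FLAG-V5-RNF12 WT, and the mutant list from Rlim+/- cells with FLAG-V5-RNF12(H569A,C572A). Both RNF12 proteins were made from stably integrated transgenes with a constitutive promoter, so their occupancy is that of an added protein and not of the endogenous one. The construct of tagged REX1 is not given in the sources used here, and the study describes REX1 occupancy as determined earlier, so it is not known whether the REX1 and RNF12 libraries were made together. Rlim is the gene of RNF12, and an untagged copy of it remained in the Rlim+/- cells. RNF12-expressing cells were treated with the proteasome inhibitor MG132 at 15 uM for 3 h and crosslinked with 2 mM DSG and 1% formaldehyde. For the REX1 cells the treatment is not given in the sources used here. Both control libraries, from WT cells without a tag, were not analysed here. Each list rests on 1 library, so no test between proteins was possible, and intervals cover the counting of peaks only. Neighbouring peaks and peaks in copies of one sequence are not independent, so these intervals are too narrow.

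RNF12 is a RING-type E3 ubiquitin ligase encoded on the X chromosome, known for its part in the start of X inactivation. REX1, the product of Zfp42, is a zinc-finger protein of the YY1 family that marks naive pluripotent cells and is ubiquitylated by RNF12 for degradation. The H569A,C572A substitutions lie in the RING domain and remove ligase activity.

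The sites were split into a pair of sets by whether the bases at their REX1 summit occur once or more often in the reference. The sets differed in position and in the strength of the mutant peak, and little in the strength of the REX1 peak. At 5483 sites (56.2%) the 32 bases centred on the REX1 summit occurred once in the reference chromosomes, and 60.7% of these single-copy sites had their summit within 1 kb of a transcription start site (TSS). Among all single-copy REX1 peaks 32683 of 81237 lay within 1 kb of a TSS, and among those with both RNF12 proteins 18110 of 23413. The single-copy sites stood between these. Over all sites, whatever their copy number, the share was 36.8%, against 36.0% of all REX1 peaks and 65.5% of those with both RNF12 proteins. At the other 4277 sites (43.8%, 42.8% to 44.8%) the same 32 bases occurred more than once, and 6.29% of these multi-copy sites lay within 1 kb of a TSS. This share fell in steps, from 20.6% at 2 to 10 copies to 5.85% at 11 to 100 and 1.97% at 101 to 1000. Of 5650 multi-copy REX1 peaks with both RNF12 proteins, 913 lay within 1 kb of a TSS. The multi-copy share was 19.4% among REX1 peaks with both RNF12 proteins, 8.88% with neither and 3.43% with wild-type only. It was higher among mutant-only sites than in each other kind on 20 of 20 chromosomes. A read that lies within repeated bases cannot be assigned to 1 of their copies from its own sequence, so a peak at such a site may hold reads from other copies.

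Most multi-copy sites could be joined into a small number of families by shared bases. When sites with any 24 bases in common within 50 bp of their summits were joined, 7 families of at least 100 sites formed, which held 3807 sites, among them 3497 of the 4277 multi-copy sites. Joining ran in chains, so sites of a family need not share bases with each other directly. Another 5329 sites joined no family. The families are numbered by size and bear no repeat name, because no repeat annotation was used. The 101 bases around the REX1 summit (mm10) of the highest-ranked site with the family's most frequent 24 bases are shown for the families whose leading bases are not a simple repeat, with those 24 bases in capitals.

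family 1 (chrX:43679313-43679413, + strand): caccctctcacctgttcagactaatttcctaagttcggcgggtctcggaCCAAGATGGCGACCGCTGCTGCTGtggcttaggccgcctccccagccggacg
family 2 (chr8:59137750-59137850, + strand): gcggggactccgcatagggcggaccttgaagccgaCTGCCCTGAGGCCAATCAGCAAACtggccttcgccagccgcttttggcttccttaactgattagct
family 3 (chr3:107377043-107377143, - strand): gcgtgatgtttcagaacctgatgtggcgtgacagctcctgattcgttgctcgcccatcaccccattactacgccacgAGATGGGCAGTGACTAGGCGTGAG
family 5 (chr14:52758110-52758210, - strand): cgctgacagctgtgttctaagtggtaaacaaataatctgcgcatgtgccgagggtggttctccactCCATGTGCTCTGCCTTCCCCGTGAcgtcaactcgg
family 6 (chr2:46696888-46696988, - strand): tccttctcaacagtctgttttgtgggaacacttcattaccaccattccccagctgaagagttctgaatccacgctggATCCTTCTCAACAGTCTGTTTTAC
family 7 (chr1:102111709-102111809, - strand): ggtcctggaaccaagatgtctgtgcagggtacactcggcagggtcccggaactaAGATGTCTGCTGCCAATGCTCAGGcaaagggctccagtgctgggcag

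The leading bases of family 1 hold both AAGATGGC, the core of the YY1 motif, and ATGGCGAC, one of the strings ATGGCGAC, ATGGCGCC, ATGGCGGC, ATGGCTAC, ATGGCTCC and ATGGCTGC that make up the REX1 motif. The YY1 core and the REX1 string overlap in the letters ATGGC, so both are often found at the same place. Neither string is in the leading bases of the other families shown. All 6 sequences shown are intergenic.

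A further 6 single-copy sites with the REX1 string are shown for contrast, the 3 highest-ranked within 1 kb of a TSS and the 3 highest-ranked beyond it whose windows touch no annotated UTR. Capitals mark the REX1 string and the YY1 core where it runs into it. The promoter sites lie beside Egfl7, Auts2 and Ckap5, and the distal sites in introns of Plxdc2 and Pcdh7 and in an intergenic stretch of chromosome 6.

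promoter, Egfl7 (chr2:26586272-26586372, - strand): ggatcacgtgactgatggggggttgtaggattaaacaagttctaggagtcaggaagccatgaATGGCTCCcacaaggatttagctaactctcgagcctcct
promoter, Auts2 (chr5:131538816-131538916, + strand): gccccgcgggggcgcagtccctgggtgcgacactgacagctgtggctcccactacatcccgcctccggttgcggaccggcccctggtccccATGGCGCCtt
promoter, Ckap5 (chr2:91526577-91526677, - strand): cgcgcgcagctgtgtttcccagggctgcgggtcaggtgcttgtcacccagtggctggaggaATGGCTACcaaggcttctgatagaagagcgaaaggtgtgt
distal, Plxdc2 (chr2:16381439-16381539, + strand): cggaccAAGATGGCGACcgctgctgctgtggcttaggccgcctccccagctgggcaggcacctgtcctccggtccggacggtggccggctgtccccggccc
distal, Pcdh7 (chr5:58000591-58000691, + strand): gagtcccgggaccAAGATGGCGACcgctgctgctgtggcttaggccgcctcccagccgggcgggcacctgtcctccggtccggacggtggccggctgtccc
distal, chromosome 6 (chr6:62391295-62391395, - strand): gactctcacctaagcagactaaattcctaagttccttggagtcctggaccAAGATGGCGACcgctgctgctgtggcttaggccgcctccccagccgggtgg

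The 3 distal sequences carry the same run of bases as family 1. They count as single-copy only because the 32 bases at their own summits are unique, and 150 sites of family 1 are of this kind. The promoter sequences share no such run.

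Copy number moved with the kind of RNF12 peak across all REX1 peaks. At the 81237 REX1 peaks with unique summit bases, 6.75% (6.58% to 6.92%) had the mutant without the wild-type and 10.3% the wild-type without the mutant. With 2 to 10 copies these shares were 15.9% and 5.00%, and with 11 to 100 copies 29.1% and 1.14%. At the 3622 REX1 peaks with 101 to 1000 copies they were 42.1% (40.5% to 43.7%) and 0.138%. Above 1000 copies, 38.4% had the mutant without the wild-type and 55.0% had both. A wild-type peak without a mutant peak was thus almost not found at REX1 peaks with over 100 copies, where it was seen 7 times. Wild-type peaks as a whole did not fall away, since the share with both rose. It was 28.8% at unique summits, 31.9% at 2 to 10 copies, 34.7% at 11 to 100 and 39.7% at 101 to 1000. The share with neither fell from 54.1% at unique summits to 6.57% above 1000 copies. The shares depended on the strength of the peaks. With all lists held to a −log10 q of at least 5, REX1 peaks with wild-type only fell from 8682 to 2622, and at single-copy summits 14.2% of REX1 peaks then had the mutant without the wild-type and 5.77% the reverse. At REX1 peaks with over 100 copies the share with the mutant without the wild-type went from 40.5% to 66.4% under this limit and the share with both from 46.4% to 26.0%, which turned their order.

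**Figure D1:**
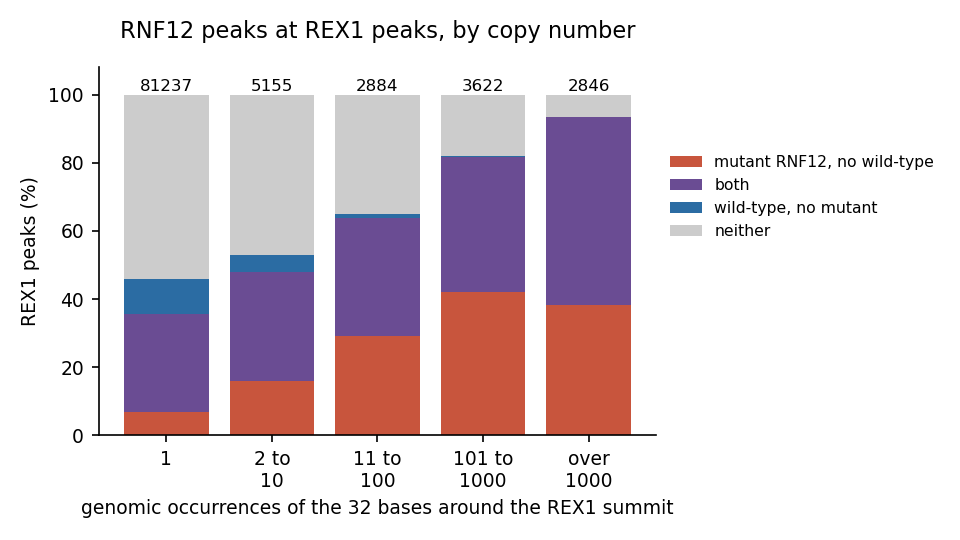
Share of REX1 peaks (vertical axis, %) with each combination of RNF12 peaks, by the number of times the 32 bases around the REX1 summit occur in the reference (horizontal axis), with the number of REX1 peaks above each bar. The share with the mutant and no wild-type rises from 6.75% at single-copy summits to 42.1% at 101 to 1000 copies, while the share with wild-type only falls from 10.3% to 0.0703% above 1000 copies. The share with both rises from 28.8% to 55.0%.

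Family 1 was the largest, with 2060 sites or 21.1% of all. The REX1 string lay within 50 bp of the summit at 61.6% of its sites, the YY1 core at 59.2%, and the RNF12 motif of the study's logo, a 15-letter string searched with 1 mismatch allowed, at 45.8%. This motif was little centred on the summit: over all multi-copy sites it was at 20.6% of summits and 15.3% of flanks 250 to 350 bp away. The sites of family 1 were 72.4% intergenic and 27.1% intronic, 1.75% were within 1 kb of a TSS, and 10.4% were on chromosome X. The nearest wild-type RNF12 peak was a median of 12808 bp away. The mutant peaks at these sites were among the strongest of the mutant list, with a median percentile rank of 95.6 (fold enrichment over background 20.5). The REX1 peaks had a median rank of 52.6 within their own list (fold enrichment 4.54).

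Family 2, with 894 sites, was like family 1 mostly intergenic, with strong mutant peaks, and differed in its strings. None of its sites had the REX1 string, the YY1 core or the RNF12 motif at the summit. The core of the ESRRB motif, that of an orphan nuclear receptor of naive pluripotency, was at 7.94% of them, against 0.850% of all sites. Its mutant peaks had a median fold enrichment of 14.6 and rank of 88.2, and 74.7% of its sites were intergenic. A wild-type peak lay within 200 bp of 1.90% of its sites, against 26.6% in family 1, and 84.2% had none within 5 kb, against 56.4%. Summits of REX1 and mutant peaks lay closer together here (median 34 bp) than in family 1 (median 124 bp).

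The smaller families had weaker mutant peaks. Family 3 (231 sites), family 5 (151), family 6 (134) and family 7 (109) had median mutant ranks of 28.1, 39.7, 56.2 and 41.6. In family 5 the cAMP response element lay within 50 bp of 35.8% of summits, against 0.676% of all 9760 sites. In family 3 the YY1 core was at 22.9% of summits and the REX1 string at 1.30%. Family 4 joined 228 sites through simple repeats, 146 of them multi-copy.

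Every copy of the leading 24 bases on chromosomes 1-19 and X was then looked up in the 3 lists, whether or not it lay at a chosen site. The leading bases were held by 860 of the 2060 sites of family 1 and 464 of the 894 of family 2. The shares are thus those of the leading bases and not of whole families. Of 6861 copies of the family 1 bases, 99.7% (99.6% to 99.8%) lay in a mutant RNF12 peak, 85.0% (84.1% to 85.8%) in a REX1 peak and 20.0% (19.1% to 20.9%) in a wild-type RNF12 peak. These copies were clustered, and those in mutant peaks fell in 2701 distinct peaks. Of 782 copies of the family 2 bases, all lay in a mutant peak, each in its own, 87.9% in a REX1 peak and 21.2% (18.5% to 24.2%) in a wild-type peak. No copy of either lay in a wild-type peak and outside a mutant peak, but the mutant shares left almost no room for one. Of the family 1 copies 6842 of 6861 lay in a mutant peak, and of the family 2 copies all.

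The other families did not share this pattern. The family 5 bases lay in a mutant peak at 77.2% of 2206 copies and in a REX1 peak at 4.81%. The family 3 bases were in REX1 peaks (34.3%) and mutant peaks (38.8%) at nearly the same share of 405 copies, with 8.15% in a wild-type peak. The family 7 bases were the most evenly shared, with 79.1%, 73.8% and 37.8% of 172 copies in a REX1, mutant and wild-type peak. The family 6 bases lay in a REX1 peak at 8.34% of 1726 copies and in a mutant peak at 2 of them, so at these sites they stood in the REX1 peak outside its overlap with the mutant peak. Since the families were drawn from sites that have a mutant peak and lack a wild-type peak, the order of the mutant and wild-type shares was favoured by the choice and was not tested.

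**Figure D2:**
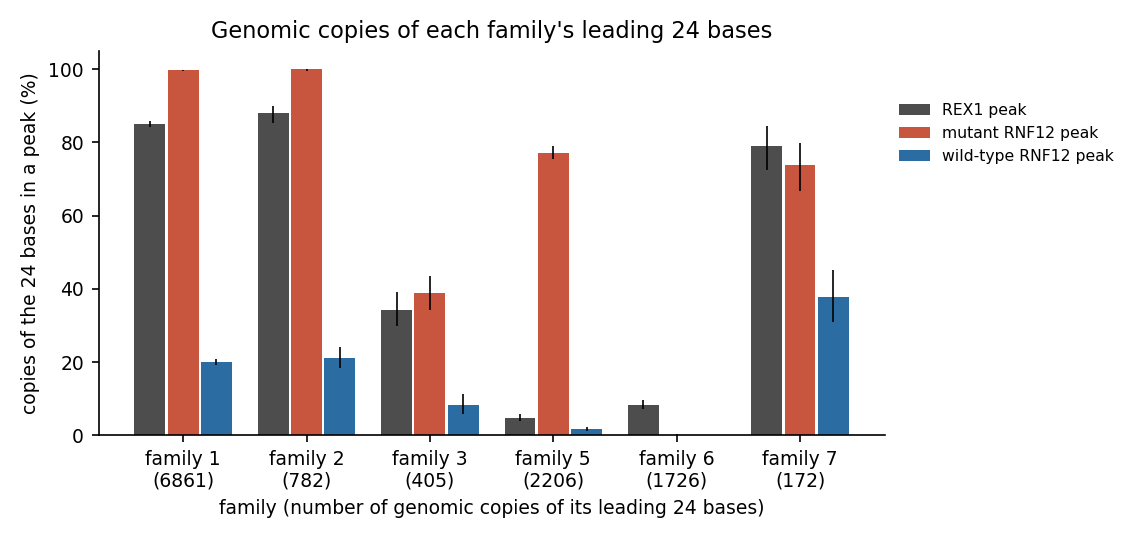
Share of all genomic copies of each family's leading 24 bases (horizontal axis, number of copies in brackets) that lie in a REX1, mutant RNF12 or wild-type RNF12 peak (vertical axis, %), with 95% Wilson intervals. Families 1 and 2 stand at 99.7% and 100% for the mutant and at 20.0% and 21.2% for the wild-type.

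The strength of the peaks separated the sets in the mutant list, mostly through sites with over 100 copies, and not in the REX1 list. Only percentile ranks within a list are compared between lists, since the control used for each list is not settled. Where raw fold enrichments of REX1 and the mutant are given for the same sites, they are not on a common scale. The median fold enrichment was 4.47 over all REX1 peaks and 11.0 over the mutant peaks that REX1 peaks overlapped. The median REX1 rank was 43.1 at single-copy and 45.5 at multi-copy sites. The median rank of the overlapped mutant peak was 53.0 at single-copy sites (fold enrichment 7.05, quartiles 5.36 and 10.3) and 87.9 at multi-copy sites (14.5, quartiles 7.23 and 21.2). At REX1 peaks with both RNF12 proteins the corresponding mutant ranks were 76.6 and 95.4, so sites without a wild-type peak had the lower mutant rank in each set. These ranks come from calls that chose the sites and are given as a description.

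**Figure D3:**
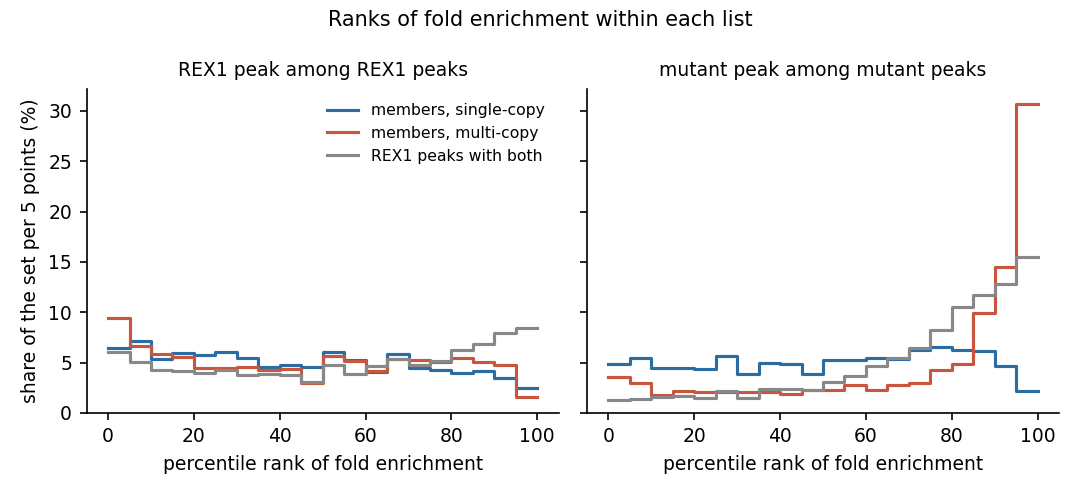
Distribution of percentile ranks of fold enrichment (horizontal axis) for the REX1 peak within the REX1 list (left) and the overlapped mutant peak within the mutant list (right), as the share of each set per 5 points of rank (vertical axis, %). Multi-copy sites, with a median mutant rank of 87.9, pile up at the right end, and single-copy sites, with a median of 53.0, are spread over the whole range and thin out above 95.

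Many sites without an overlapping wild-type peak had one close by. Among single-copy sites, 37.7% (36.4% to 39.0%) had a wild-type peak within 200 bp and 21.4% had none within 5 kb. Among multi-copy sites the shares were 15.9% and 65.0%. REX1 peaks with neither RNF12 protein had a wild-type peak within 200 bp in 8.46% of cases. Only 18.9% of these peaks lay within 1 kb of a TSS, against 60.7% of single-copy sites. Split by position, the share with a wild-type peak within 200 bp was 48.7% at single-copy sites within 1 kb of a TSS and 20.7% beyond it. Moreover, the mutant peak itself ran on into a wild-type peak at 2681 sites (27.5%), and at 2057 sites the same mutant peak also overlapped a REX1 peak that has a wild-type peak. At single-copy sites within 1 kb of a TSS the mutant peak met a wild-type peak in 43.0% of cases (41.3% to 44.7%). At these sites the wild-type peak lay under the same mutant peak and outside the REX1 peak.

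**Figure D4:**
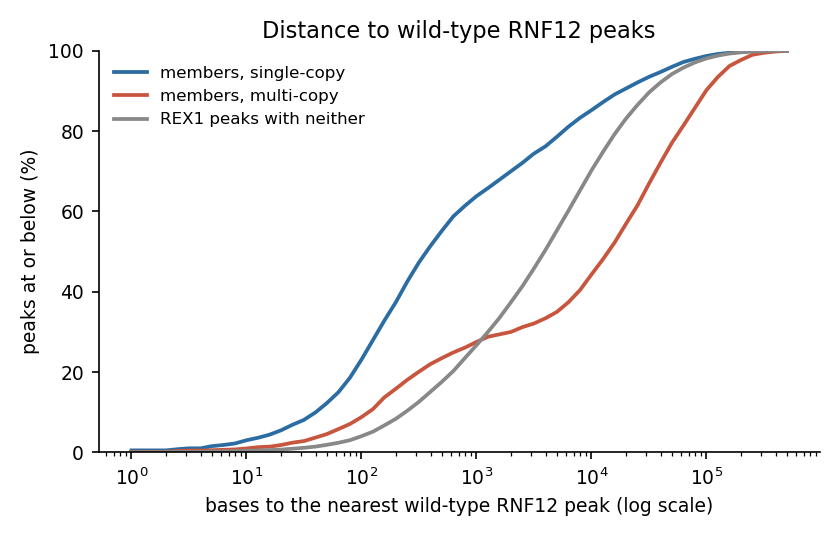
Share of peaks (vertical axis, %) with a wild-type RNF12 peak at or below a given distance in bases (horizontal axis, log scale), for single-copy sites, multi-copy sites and REX1 peaks with neither RNF12 protein. The single-copy curve reaches 55.2% at 500 bp, the multi-copy curve 23.5% and the curve of REX1 peaks with neither 17.6%.

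The edges of the rule bear on the same point. There were 208 sites with a wild-type peak 10 bp away or less, with a median REX1 fold enrichment of 4.01 and a median mutant fold enrichment of 9.70. Just outside the rule, 227 REX1 peaks with both proteins overlapped wild-type peaks by 10 bp or less in all, with medians of 4.08 and 9.99. On the other edge, 202 sites overlapped mutant peaks by 10 bp or less, and 210 REX1 peaks with neither protein had a mutant peak 10 bp away or less. The median REX1 fold enrichments of these were 3.94 and 4.01.

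Most genes with a site at a promoter also had a wild-type RNF12 peak at one of their TSSs. Of 21727 protein-coding genes, 2833 (13.0%) had a site within 1 kb of a TSS. Of these genes, 2494 (88.0%, 86.8% to 89.2%) also had the summit of a wild-type RNF12 peak within 1 kb of any of their TSSs, not always the one beside the site, and 339 had none. The reverse share was much alike, with a mutant summit at 84.8% (83.3% to 86.3%) of the 2169 genes with a promoter REX1 peak with wild-type only. Over all protein-coding genes, such a wild-type summit was present at 68.9% and a mutant summit at 67.7%. For comparison, 12195 genes (56.1%) had a REX1 peak with both proteins at the same distance. The sites stood further from the start than REX1 peaks with both and nearer than those with wild-type only: 41.0% (39.4% to 42.6%) of promoter sites had their summit within 150 bp of the TSS, against 57.5% (56.8% to 58.2%) of promoter REX1 peaks with both and 35.9% (34.1% to 37.7%) of those with wild-type only. The summit lay downstream of the TSS at 63.3% of promoter sites and 63.0% of promoter REX1 peaks with both.

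Single-copy promoter sites had the REX1 string and the YY1 core less often than the corresponding REX1 peaks with both proteins, as did single-copy promoter REX1 peaks of the other kinds. The REX1 string was within 50 bp of the summit at 6.01% (5.25% to 6.87%) of them, against 11.2% (10.8% to 11.7%), and the YY1 core at 1.26% against 3.46%. The cores of ETS factors (CCGGAAGT) and NRF1 (TGCGCATGC), which are common promoter activators, were at 0.601% and 0.180% of single-copy promoter sites and at 1.76% and 1.05% of promoter REX1 peaks with both. Flanks 250 to 350 bp away held the REX1 string at 2.22% of the sites' windows and 2.19% of the others'. Among single-copy promoter REX1 peaks with wild-type only the REX1 string was at 7.92%, the YY1 core at 0.995% and the ETS and NRF1 cores each at 0.651% (0.407% to 1.04%), and among those with neither the ETS and NRF1 cores were at 0.394% and 0.197%. Most other strings searched also had the lower share at the sites, among them the SP/KLF core (2.83%, 2.31% to 3.45%, against 3.88%, 3.61% to 4.17%) and the cAMP response element (0.271% against 0.618%). The E-box, OCT, AP-1, ZFX and RFX strings and the RNF12 motif were lower with overlapping intervals, and the CTCF, SOX, ESRRB and B1 strings were not lower. At single-copy sites beyond 1 kb of a TSS the REX1 string was as frequent as at REX1 peaks with both (10.1%, 8.91% to 11.5%, against 9.88%, 9.11% to 10.7%). The YY1 core was at 4.59% (3.79% to 5.56%) against 2.56% (2.17% to 3.03%), but of the 99 distal single-copy sites with it 62 belonged to family 1, and outside family 1 the shares of the sites were 1.84% for the YY1 core and 7.62% for the REX1 string. At distal single-copy summits without a soft-masked base the YY1 core was at 1.26% (0.791% to 2.01%) of the sites and 0.941% (0.683% to 1.29%) of REX1 peaks with both, and the REX1 string at 7.66% (6.35% to 9.20%) and 8.95% (8.10% to 9.88%).

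Over all 9760 sites the REX1 string stood at 17.6% (16.8% to 18.3%) of summits and 3.14% of flanks, and the YY1 core at 14.3% and 2.27%. Around the mutant summits of the same sites the REX1 string stood at 6.14%. The share with the REX1 string was close to that of REX1 peaks with both (16.4%, 16.0% to 16.8%). It was more frequent at multi-copy than at single-copy summits among the sites (30.3% against 7.62%) and among REX1 peaks with both (39.0% against 10.9%), and 418 of the 1714 sites with the string were single-copy. Summits of sites without any soft-masked base within 50 bp, that is, outside the sequence that the reference marks as repeated, had it at 6.75%. A soft-masked base was present at 55.6% (54.6% to 56.5%) of all sites, 31.0% of REX1 peaks with both and 40.3% with neither. Median GC content within 100 bp was 61.7% at the sites, 65.2% at REX1 peaks with both and 54.2% with neither.

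Among the 10 promoter sites ranked highest in both lists, 7 had a wild-type peak within 200 bp. The strongest were those of Gbp8, an interferon-induced guanylate-binding protein, and Setbp1. The Gbp8 site (chr5:105022168-105022518) belonged to family 1, with fold enrichments of 11.8 for REX1 and 29.0 for the mutant and the nearest wild-type peak 18173 bp away. At Setbp1 (chr18:79109400-79109570) the values were 11.8 and 20.3, with a wild-type peak 78 bp away. The others were Egfl7, Synrg, Ptk2, Zmiz2, Auts2, Dmtf1, Galnt9 and Nrip1, with REX1 fold enrichments of 7.51 to 11.5 and mutant fold enrichments of 15.9 to 21.1. All but Gbp8 were single-copy.

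Ptk2, the gene of focal adhesion kinase, had a single-copy promoter site without a called wild-type RNF12 peak nearby. Its site (chr15:73423029-73423409) had its summit 34 bp upstream of a TSS, a REX1 fold enrichment of 11.5 with a −log10 q of 39.6, and a mutant fold enrichment of 18.5 with a −log10 q of 47.1. The summits were 16 bp apart and the nearest wild-type peak was 19167 bp away. Galnt9, a GalNAc transferase gene, had values of 8.76 and 15.9, with a wild-type peak 18051 bp away. Other single-copy promoter sites without a wild-type peak within 5 kb, picked after their values were seen, included Morc1, a germline transposon repressor (7.27 and 15.9), Car8 (6.91 and 14.6), and Ufm1, a ubiquitin-like modifier (11.9 and 13.5). At each of Morc1, Car8 and Ufm1 the gap to the wild-type list was over 20 kb.

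The 10 highest-ranked sites beyond 1 kb of any TSS were all multi-copy and soft-masked, with 9 in family 1 and 1 in family 2. Their REX1 fold enrichments were 9.43 to 11.3 and their mutant fold enrichments 21.5 to 44.3. Chromosome X held 3 of them, and 8 had the REX1 string at the summit. The strongest mutant peak among them, 44.3, was in an intron of 6530403H02Rik on chromosome 3 (chr3:120826428-120826771), where the 32 summit bases occur 3720 times and a wild-type peak lies 343 bp away. At chr13:80024045-80024824 the nearest wild-type peak was 221638 bp away.

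Sites at genes of the pluripotency and X-inactivation network were mostly weak in the REX1 list. Of 20 naive pluripotency factors 4 had a site within 1 kb of a TSS (20.0%, against 13.0% of all protein-coding genes), and 15 had a REX1 peak with both proteins. A site is itself a REX1 peak, and 67.5% of all protein-coding genes had a REX1 summit within 1 kb of a TSS. Here and in the lists below, the 13.0% is thus a low background for genes that mostly have REX1 peaks. The 4 were Sox2, Nanog, Esrrb and Zfp42. The REX1 fold enrichments at Sox2, Nanog and Esrrb were 2.92, 2.71 and 2.97, at percentile ranks of 5.11, 2.87 and 6.14. At Sox2 a wild-type peak was 12 bp away, and at Nanog 2162 bp. Esrrb is on chromosome 12, where the wild-type list was short.

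Zfp42, the gene of REX1 itself, had the site with the highest REX1 fold enrichment of these (chr8:43306873-43307063). Its summit was 7 bp upstream of the TSS, with a REX1 fold enrichment of 6.42 (rank 85.1) and a mutant fold enrichment of 9.96 (rank 73.6). The nearest wild-type RNF12 peak was 960 bp away. The base sequence at the summit was single-copy and held neither the REX1 string nor the YY1 core.

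Of 13 X-inactivation genes found in the annotation 2 had a site (15.4%, against 13.0% of all protein-coding genes). These were Spen, a silencing cofactor that binds Xist RNA, and Tsix, the antisense RNA that represses Xist. The Tsix site (chrX:103431486-103431621) was 3 bp from a TSS, with a REX1 fold enrichment of 3.29, a mutant fold enrichment of 6.46 and the nearest wild-type peak 15818 bp away, though a wild-type summit lay within 1 kb of another TSS of Tsix. No site lay in or within 5 kb of Xist or Rlim. Of 12 genes of the RNF12 pathway 4 had a site (33.3%, against the same 13.0%), namely Zfp42, Yy1, Ldb1 and Lmo2. Yy1, of the same family as REX1 and on chromosome 12, had a weak REX1 peak (2.85, rank 4.37) under a strong mutant peak (17.4, rank 92.7), and the mutant peak also overlapped a wild-type peak.

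The DNA methylation machinery had the highest share of the gene lists examined. Of 11 genes 5 had a site (45.5%, against 13.0% of all protein-coding genes), namely the DNA demethylation genes Tet1, Tet2, Tet3 and Tdg and the methyltransferase Dnmt3a, and each of the 5 had a wild-type summit within 1 kb of a TSS too. Dnmt3a alone had 7 sites, all on chromosome 12, and Tet1 and Tdg are on chromosome 10, so the count leans on chromosomes where the wild-type list was short. The Tet2 site (chr3:133544175-133544411) had the REX1 string and the YY1 core, a REX1 fold enrichment of 18.1 (rank 99.6) and a mutant fold enrichment of 7.90, with a wild-type peak 292 bp away. Of 30 imprinted genes 9 had a site (30.0%, against the same 13.0%), among them Gnas and Mest. Plagl1 on chromosome 10 and Dlk1 and Meg3 on chromosome 12 were 3 of the 9, and Peg10 and Sgce shared 1 site. Dlk1 was the only one without a wild-type summit at its TSSs.

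The other lists were near or below the 13.0% of all protein-coding genes. Polycomb genes had 4 of 27, heat shock genes 3 of 24, Hox genes 6 of 39, mitochondrial ribosomal proteins 10 of 78 and Zfp genes 55 of 394. Lower counts were seen for cytosolic ribosomal proteins (7 of 83), proteasome subunits (2 of 39) and replication-dependent histones (2 of 67). A REX1 peak with both proteins was present at 85.5% to 95.8% of the genes in each of these lists except the Zfp genes, where it was at 65.5%.

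The sites were unevenly spread over chromosomes, in a different way for each set. The share of REX1 peaks that were chosen was 7.91% to 12% on the 17 chromosomes other than 10, 12 and X, and 14.4%, 14.1% and 15.8% on these. On chromosomes 10 and 12 the excess was in single-copy sites (9.88% and 9.39% of REX1 peaks, against 4.06% to 6.07% elsewhere). The wild-type list held only 3070 and 2289 peaks there, against 4672 and 4303 in the mutant list and 4554 and 5892 in the REX1 list. On chromosome X the excess was mostly in multi-copy sites (11.0%, 9.95% to 12.1%, against 1.94% to 6.35% elsewhere). Its single-copy sites were 4.83% of all its REX1 peaks, within the range of the others. Of its single-copy REX1 peaks alone they were 7.64%, more than on each of the 17 chromosomes other than 10, 12 and X. On chromosomes 10 and 12 this share was 11.4% and 11.5%. The mutant list held 5241 peaks on chromosome X, against 3293 in the wild-type list and 3186 in the REX1 list. Whether missing wild-type peaks on chromosomes 10 and 12 come from the library, the cells or the calling was not tested.

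**Figure D5:**
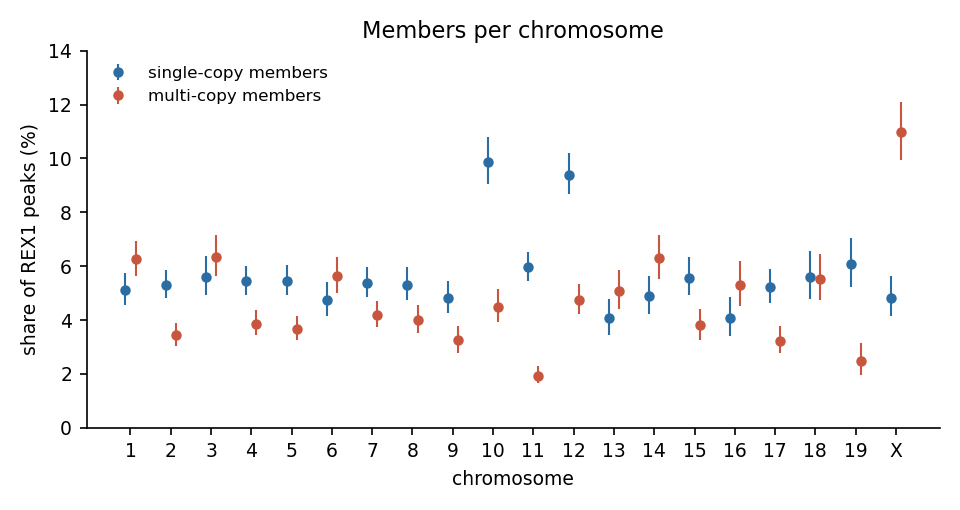
Share of REX1 peaks on each chromosome (horizontal axis) that are single-copy or multi-copy sites (vertical axis, %), with 95% Wilson intervals. Chromosomes 10 and 12 stand out for single-copy sites at 9.88% and 9.39%, and chromosome X for multi-copy sites at 11.0%.

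The 3 highest-ranked sites of each of chromosomes 10 and 12 were again multi-copy. On chromosome 12 they had REX1 fold enrichments of 8.39 to 9.40 and mutant fold enrichments of 18.4 to 25.8, and 1 was in an intron of Slc25a21, a mitochondrial carrier gene (chr12:56750988-56751150). On chromosome 10 all 3 belonged to family 1, with the highest REX1 fold enrichment at chr10:65389268-65389878 (10.3 for REX1, 25.8 for the mutant) and the nearest wild-type peak 216829 bp away.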

How the data were processed

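The deposited files analysed were narrow peak lists: 96050 peaks of REX1, 97602 of wild-type RNF12 and 98124 of the inactive mutant. According to the methods and labels, the authors trimmed reads with Trim Galore 0.6.7, aligned them with Bowtie2 2.5.0 to an mm10 genome masked at 129/Sv and Cast/Ei SNPs, split them by allele with SNPsplit, merged the split and unassigned reads with SAMtools 1.10 and called narrow peaks with MACS2 2.2.7.1. The deposited values are the fold enrichment of each summit over background, a linear ratio, and −log10 p and −log10 q, the lowest −log10 q reported being 1.31. The filter on multiply placed reads and the control behind each list are not given in the sources used here, and the depth is unknown. How reads from repeated sequence were placed was not tested.

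Samples were grouped by the genotype label (RNF12 libraries) or title (REX1 and controls). Peaks on chromosomes 1-19 and X were overlapped by at least 1 bp. TSSs were those of GENCODE M21, and sequence and soft-masking those of GRCm38 (mm10). Strings were searched on both strands within 50 bp of the summit, and copies of the 32 bases around it were counted on chromosomes 1-19, X and Y. Shares have 95% Wilson intervals, which cover counting only. Sites named were the 10 highest by the lower of both fold enrichment ranks within 1 kb of a protein-coding TSS and the 10 highest beyond 1 kb of any TSS, both without chromosomes 10 and 12, the 3 highest on each of these, and those at genes of the pluripotency, X inactivation and RNF12 lists or near Xist, Tsix, Rlim and Zfp42. Sites at genes of other lists, and the single-copy sites without a wild-type peak within 5 kb, were named after their values were seen. The sites, strings and lists were chosen with earlier results of these data known, and copy number and families after the data were seen. Steps were tested on simulated data and run in Python 3.11.15 with numpy 2.4.6, pandas 2.3.3, scipy 1.17.1 and numba 0.67.0.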

Additional observations from a re-analysis of the deposited data

Results flagged for a closer look

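Outside the chromosomes analysed, 78 REX1 peaks on chromosome Y and unplaced scaffolds met the same overlap rule, 49 of them on chromosome Y, of 306 REX1 peaks there in all. The cells are labelled female, and no control list was analysed, so this value was marked as signal in data that the comparisons did not use and its source was not tested.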

How the results depend on the processing

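No paired analysis was possible because each list rests on 1 library. Of the alternatives, those by single-copy bases, by mutant peaks that meet no wild-type peak and of strings at distal single-copy sites, and the copy number results, were chosen after seeing the data. An overlap of 50% of both peaks with the mutant left 4049 sites, of which 25.9% were within 1 kb of a TSS, 14.3% had the REX1 string, 63.9% a soft-masked base and 53.9% were multi-copy, with median REX1 and mutant ranks of 47.5 and 56.7. With no wild-type peak within 500 bp there were 5727 sites, of which 20.2% were within 1 kb of a TSS, 67.8% soft-masked and 57.1% multi-copy, with ranks of 46.0 and 60.8. With none within 5 kb there were 3955, of which 14.7% were within 1 kb of a TSS, 21.2% had the REX1 string, 79.1% were soft-masked and 70.3% multi-copy, with ranks of 47.5 and 71.9. Holding all lists to a −log10 q of 2 gave a TSS share of 37.8% and ranks of 46.7 and 68.7. At 5 the wild-type list shortened too and there were 10401 sites, with 46.5% within 1 kb of a TSS, 24% with the REX1 string, 49.4% soft-masked, 39.3% multi-copy and ranks of 69.3 and 79.5. With the wild-type list whole and the others held to 5 there were 4678 sites, with 35.8%, 24.7%, 59.5% and 49.7% for the same shares and ranks of 68.7 and 78.6. Without chromosomes 10 and 12 the TSS, soft-masked and multi-copy shares were 35.1%, 58.1% and 45.8%. The 5483 single-copy sites alone had 60.7% within 1 kb of a TSS, 7.62% with the REX1 string, 26.6% soft-masked and a mutant rank of 53.0. Sites whose mutant peak met no wild-type peak had shares of 29.7%, 15.3%, 58.9% and, for multi-copy, 47.1%, and a mutant rank of 54.4. Counting protein-coding TSSs only gave 32.3%, and 3 kb gave 45.2%. The REX1 string was at 23.3% within 100 bp, 6.75% without soft-masked bases and 6.14% around mutant summits. The summit base itself was soft-masked at 45.6%. Ranked by −log10 q, the medians were 47.9 and 68.3. The cause of these moves was not tested beyond the construction of each alternative. With 1 library a list and unknown depth, the absence of a wild-type peak does not show the absence of wild-type RNF12.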
